A study of Rattus norvegicus with 43 samples.

Results

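In the anterior pituitary gland of F2 rats, 8 genes were studied: Fubp3, Lsg1, Nif3l1, Ddx5, Harbi1, Stt3a, Abca1 and Fibin. For each, the signal of 1 probe set was split into a low class of animals and a larger class of other animals. The split of Stt3a missed the threshold used below. In Lsg1, Ddx5, Harbi1, Stt3a and Fibin the gene's other probe set overlapped widely between the classes. The 8 genes were chosen by name, because earlier results of these data had shown 2 classes of values. Every probe set annotated to 1 of these symbols alone was taken. This gave 18 probe sets of 8 genes, of 31042 probe sets and 14217 singly named genes on the array. A probe set is a group of short oligonucleotides that together report 1 stretch of transcript.

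The 43 animals were male F2 rats of a cross between the inbred Copenhagen (COP) and ACI strains, and all belonged to 1 group with 1 array each. Every animal was implanted with the synthetic estrogen diethylstilbestrol (DES, 5 mg) from 9 weeks of age for 12 weeks, and received the thymidine analog bromodeoxyuridine at 50 mg/kg 4 hours before it was sacrificed at 21 weeks. No untreated animals and no parental animals were analysed here. Per the design, 22 of these animals had the heaviest and 21 the lightest glands of a larger population. The labels do not say which animal belonged to which extreme, so no such comparison was made, and animals are named by the number in their labels.

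In the F2 generation of 2 inbred strains, each animal carries 0, 1 or 2 copies of either parental allele of an autosomal gene, in expected proportions of 1:2:1. A gene whose alleles differ in output near the gene itself is then expected to have values in classes. A recessive low class would hold 1 animal in 4, a ratio of 1:3. A base difference under the short probes of an array can give the same classes with no difference in the amount of RNA, because a mismatched transcript binds less well. Genotypes and probe sequences were not used here, so the part of either in the values below was not tested, and which parental allele goes with a low value cannot be told.

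The 8 genes have unlike roles. Ddx5 encodes the RNA helicase p68, which works in splicing and microRNA processing and binds the estrogen receptor as a coactivator, and Fubp3 encodes a KH-domain protein that binds single-stranded nucleic acids. Lsg1 is a GTPase of the last, cytoplasmic steps of large ribosomal subunit maturation, and Stt3a is a catalytic subunit of the oligosaccharyltransferase, which adds N-linked sugars to proteins entering the endoplasmic reticulum. Abca1 exports cholesterol and phospholipid from cells to apolipoproteins. Harbi1 derives from a transposase of the Harbinger family, Nif3l1 is a widely conserved protein named for its likeness to a yeast interaction factor, and Fibin is a secreted factor first described in fin bud formation of zebrafish. In the RefSeq gene table Fubp3, Harbi1 and Fibin lie on chromosome 3, Abca1 on chromosome 5, Stt3a on chromosome 8, Nif3l1 on chromosome 9, Ddx5 on chromosome 10 and Lsg1 on chromosome 11.

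Promoter sequences from RefSeq (assembly GRCr8, 250 bases before to 50 after the gene start) were available for 7 of the 8 genes. The reference animal is of neither parental strain, so the letters below are not those of the COP or ACI alleles. The first set is shown because Nif3l1 and the gene beside it, Ppil3, were a next-door pair with values that ran the same way, and Harbi1 and its neighbour Atg13 a pair with values that ran in opposite ways. Capitals mark 4 motifs of 6 letters, searched on both strands. The letters of the ETS motif are CGGAAG. Those of the SP motif are GGGCGG. The TATA motif is TATAAA, and the E-box is CACGTG. In the Nif3l1 and Ppil3 windows 1 ETS match and the SP match overlap by 3 letters on the same strand, and in the Harbi1 window they adjoin, so each pair prints as 1 capital run.
Nif3l1, chr9:67474122-67474421, plus strand: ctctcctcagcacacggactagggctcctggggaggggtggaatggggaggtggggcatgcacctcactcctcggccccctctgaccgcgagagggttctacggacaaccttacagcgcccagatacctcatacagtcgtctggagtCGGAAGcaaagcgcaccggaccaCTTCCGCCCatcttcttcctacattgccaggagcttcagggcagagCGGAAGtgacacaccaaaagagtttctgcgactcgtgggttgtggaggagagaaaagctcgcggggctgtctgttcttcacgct
Ppil3, chr9:67474202-67474501, minus strand: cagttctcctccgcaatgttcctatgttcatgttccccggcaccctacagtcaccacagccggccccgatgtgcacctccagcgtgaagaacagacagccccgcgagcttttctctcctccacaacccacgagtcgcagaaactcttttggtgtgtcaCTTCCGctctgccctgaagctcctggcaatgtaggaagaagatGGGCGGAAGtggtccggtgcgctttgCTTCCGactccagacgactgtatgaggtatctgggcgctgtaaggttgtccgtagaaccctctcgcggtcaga
Harbi1, chr3:98136893-98137192, plus strand: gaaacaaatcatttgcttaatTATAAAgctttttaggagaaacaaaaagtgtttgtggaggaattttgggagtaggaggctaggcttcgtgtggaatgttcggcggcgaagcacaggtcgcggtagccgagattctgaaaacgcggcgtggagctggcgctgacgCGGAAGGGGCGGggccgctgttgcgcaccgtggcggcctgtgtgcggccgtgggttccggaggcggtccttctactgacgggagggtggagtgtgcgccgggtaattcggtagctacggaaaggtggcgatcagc
Atg13, chr3:98136692-98136991, minus strand: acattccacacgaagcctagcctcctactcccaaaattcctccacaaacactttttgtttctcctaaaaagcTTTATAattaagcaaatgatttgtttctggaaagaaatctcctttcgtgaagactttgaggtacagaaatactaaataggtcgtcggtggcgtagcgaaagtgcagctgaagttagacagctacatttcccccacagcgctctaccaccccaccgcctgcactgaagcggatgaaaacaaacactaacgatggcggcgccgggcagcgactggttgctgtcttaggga

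The Nif3l1 and Ppil3 windows run head to head and share 220 bases, with 3 ETS matches and 1 SP match in each window. The Harbi1 and Atg13 windows share 99 bases, which hold the TATA match of both, while the ETS and SP matches lie in the Harbi1 window alone. The Abca1 promoter is shown because this gene had the most probe sets.
Abca1, chr5:72596424-72596723, minus strand: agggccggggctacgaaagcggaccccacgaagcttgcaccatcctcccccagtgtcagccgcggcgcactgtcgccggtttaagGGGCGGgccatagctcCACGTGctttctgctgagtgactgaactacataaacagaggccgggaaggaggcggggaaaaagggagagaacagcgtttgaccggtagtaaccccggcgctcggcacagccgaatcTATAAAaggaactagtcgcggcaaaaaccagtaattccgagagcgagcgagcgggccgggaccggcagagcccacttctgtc

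It holds 1 SP match, 1 TATA match and 1 E-box. Of 33469 rat promoters of this length, 16.6% held the ETS motif, 33.1% the SP motif, 14.2% the TATA motif and 6.42% the E-box. These matches describe the letters of the window only.

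Values were intensities scaled by the authors, analysed as log2(intensity + 16). Each probe set was split into 2 classes at the point that minimises the spread within classes. The separation is the difference between the class means divided by the SD within classes, and a probe set was called two-class where the separation was at least 4 and the smaller class held at least 4 animals. Of the members' 18 probe sets, 17 passed a filter on dim signal (mean log2 above 7.16), and 7 of the 17, of 7 genes, were called. Over all 15521 probe sets that passed, 118 were called, or 0.76%. With the smaller class low, as in all 7, the share was 0.573%. Because the genes were chosen for these values, the counts describe the choice and nothing is read from them. The probe sets just inside and just outside the threshold had separations of 4.001 and 3.998.

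One array differed from the rest: that of animal 43 correlated with the remaining 42 at a mean r of 0.927, whereas every other array had a mean r between 0.967 and 0.976. Its value lay in the low class of Lsg1 and Ddx5 and in the larger class of the other 6 genes. Markers of the gland were bright, with median log2 values of 15.63 for prolactin (Prl), 14.99 for growth hormone (Gh1) and 12.76 for the lineage factor Pou1f1. The posterior lobe hormones Avp and Oxt (medians 5.10 and 5.03) and the corticotroph precursor Pomc (5.50) were below the filter, each on 1 probe set. Whether that of Pomc reports its transcript was not tested, so no absence of corticotrophs is read from it. In tissue, fewer cells of a type and less RNA per cell cannot be told apart.

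Fubp3 had the widest gap of the 8 genes. One of its probe sets (1393006_at) gave intensities from 72.4 to 141.5 (median 109.9) in 9 animals, against 451.3 to 1342.1 (median 627.7) in the other 34. No animal lay between log2 values of 7.30 and 8.87, a gap of 1.57. The mean of the low class was 0.153 times that of the other animals, and the separation of 6.98 ranked 4th among all probe sets with at least 4 animals in the smaller class. The low animals were numbers 2, 5, 10, 12, 14, 16, 17, 25 and 33.

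The ribosome biogenesis GTPase Lsg1 had a low class of the same size. Its probe set 1391565_at gave 39.6 to 93.2 (median 61.5) in animals 3, 4, 10, 17, 28, 37, 38, 40 and 43, against 288.9 to 1002.0 (median 434.4) in the other 34. The low mean was 0.122 times the other mean, the lowest ratio among the 8 genes, with a gap of 1.48 and a separation of 5.51. Animal 43 had the highest log2 value of the low class, 6.77, well below the lowest of the other animals, 8.25.

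Nif3l1 also had 9 low animals: numbers 1, 3, 4, 8, 11, 13, 26, 31 and 40. Intensities of probe set 1384207_at were 7.0 to 106.0 (median 75) in these, against 245.3 to 682.4 (median 362.2) in the other 34. The ratio of means was 0.159, the gap 1.10 and the separation 5.08. Within the low class, 2 animals, numbers 1 and 3, lay lower than the rest, with log2 values of 5.07 and 4.52, against 5.84 to 6.93 in the other 7 low animals. The intensities of these 2, 17.5 and 7.0, lie near the background, so they are not read as a class of their own.

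The helicase Ddx5 had 13 low animals (2, 8, 15, 18, 19, 23, 26, 27, 28, 33, 40, 41 and 43). Probe set 1372484_at ranged from 566.5 to 1789.6 (median 1010) in these and from 3848.5 to 8954.6 (median 4436) in the other 30. The classes were 1.10 apart at their nearest on the log2 scale, the separation was 5.08, and the low mean was 0.195 times the other mean.

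Harbi1 had the largest low class, 14 animals (1 to 4, 6 to 10, 14, 18 to 20 and 33). Its probe set 1386420_at gave 88.5 to 310.3 (median 166.1) in these, against 430.0 to 1013.5 (median 721.6) in the other 29, with a ratio of means of 0.227, a gap of 0.45 and a separation of 5.34. The low animals were spread unevenly over the animal numbers: 13 of the 22 animals numbered 1 to 22 were low, against 1 of the 21 numbered 23 to 43. What the numbers stand for is not given in the labels. For the other 7 genes the low class held 3 to 7 animals of the first 22 and 2 to 8 of the other 21. The counts were 7 and 2 for both Fubp3 and Abca1, 6 and 3 for Nif3l1 and 3 and 2 for Fibin. They were 6 and 6 for Stt3a, 5 and 8 for Ddx5 and 4 and 5 for Lsg1.

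For Abca1, the cholesterol exporter, probe set 1382431_at gave 122.4 to 270.6 (median 199.3) in 9 animals (1, 6, 10, 11, 17, 18, 21, 26 and 33) and 496.1 to 1609.7 (median 697.6) in the other 34. The ratio of means was 0.25, with a gap of 0.84 and a separation of 5.11. The larger class was long at its upper end.

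Stt3a and Fibin were the least clear. Stt3a, probe set 1377633_a_at, gave 4.4 to 129.8 (median 70.9) in 12 animals (2, 3, 7, 16, 17, 21, 23, 24, 29, 35, 40 and 41) and 193.4 to 490.4 (median 261.6) in the other 31. Its ratio of means was 0.252 and its gap 0.52, but the separation of 3.88 missed the threshold. It passed with a pseudocount of 64 (4.26) and with classes from a normal mixture (4.08, with 10 low animals), but not in the other 5 planned settings (3.50 to 3.88). Fibin had 5 low animals, numbers 4, 6, 13, 23 and 34, with log2 values of 5.94, 6.62, 5.98, 5.94 and 7.42 for probe set 1373727_at, against 7.73 to 9.46 in the other 38. Its ratio of means was 0.189 and its separation 4.80, but the gap was only 0.31, since animal 34 lay close to the larger class.

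**Figure D1:**
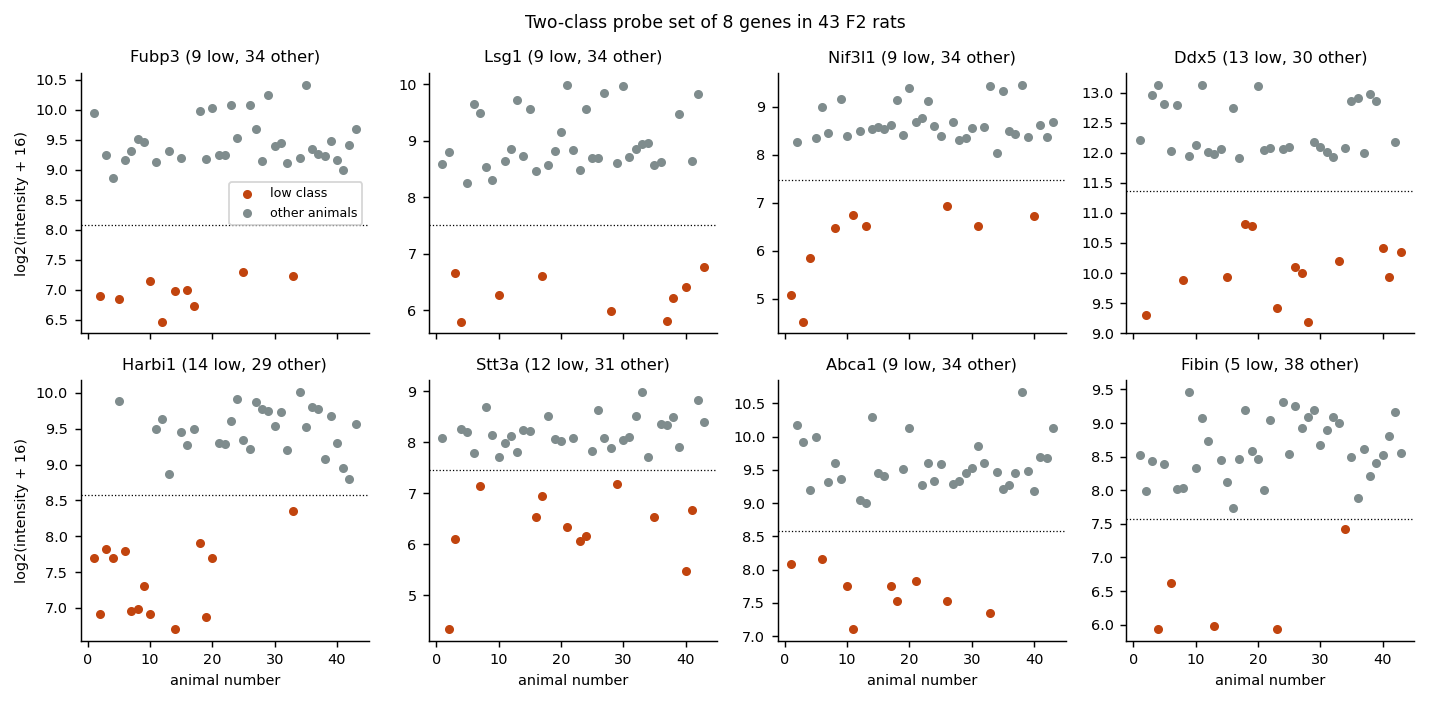
Log2(intensity + 16) of the two-class probe set of each of 8 genes (y axis) against the animal number (x axis) for 43 F2 rats; red points are the low class, grey points the other animals, and the dotted line lies midway in the gap. The low class holds 9 animals for Fubp3, Lsg1, Nif3l1 and Abca1, 13 for Ddx5, 14 for Harbi1, 12 for Stt3a and 5 for Fibin, and 13 of the 14 low Harbi1 animals are numbered 1 to 22.

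The class sizes were set beside 1:3. The low class held 20.9% of animals for Fubp3, Lsg1, Nif3l1 and Abca1 (exact Clopper-Pearson 95% interval 10.0 to 36.0%). It held 30.2% for Ddx5 (17.2 to 46.1%), 32.6% for Harbi1 (19.1 to 48.5%), 27.9% for Stt3a (15.3 to 43.7%) and 11.6% for Fibin (3.89 to 25.1%). All 8 intervals contain 25%, that of Fibin only just. With a pseudocount of 1, with the split at the largest gap and with a normal mixture, the low class of Fibin held 4 animals, or 9.3% (2.59 to 22.1%), and that interval does not contain 25%. With 43 animals the intervals are wide, so shares well away from 25% lie inside them too. The intervals also assume animals that were not selected, whereas these were taken for extremes of pituitary weight. They further assume 1 share common to all animals. For Harbi1, 13 of the 22 animals numbered 1 to 22 were low, against 1 of the other 21. Its interval therefore describes neither set, and nothing is read from its holding 25%.

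The larger class was itself uneven, and it was split once more by the same rule, a step chosen after the values were seen. For Ddx5 this gave 13 low, 19 middle and 11 top animals with mean intensities of 1090 ± 384, 4258 ± 254 and 7868 ± 784 (SD). No animal lay in a stretch of 0.51 on the log2 scale between the middle and the top, and the middle mean lay 46.8% of the way from the low to the top mean. Thus Ddx5 values formed 3 bands, roughly evenly spaced in intensity, in which 44.2% of animals were in the middle.

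Lsg1 had 9 low, 24 middle and 10 top animals, with means of 64 ± 19.6, 398.8 ± 59.7 and 830.7 ± 114 and an upper gap of 0.33. Fubp3 had 9, 25 and 9 animals (110 ± 21.6, 602.6 ± 68.4 and 1028 ± 172), and Nif3l1 9, 26 and 8 (63.9 ± 34.3, 342.6 ± 38.4 and 596.3 ± 70.9), with upper gaps of 0.14 and 0.24. In these 3 genes the middle class held 55.8 to 60.5% of animals, and its mean lay 43.7%, 53.7% and 52.3% of the way for Lsg1, Fubp3 and Nif3l1. Abca1 was split 9, 26 and 8, with the middle mean at 50.0% of the way and an upper gap of 0.16. The upper split was least clear in Harbi1 (14, 11 and 18 animals), Stt3a (12, 21 and 10) and Fibin (5, 23 and 15), with upper gaps of 0.12, 0.08 and 0.06. As a normal mixture with 1 shared SD, 3 components gave the lowest Bayesian information criterion for Fubp3, Lsg1, Nif3l1 and Stt3a, and 2 components for Ddx5, Harbi1, Abca1 and Fibin.

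**Figure D2:**
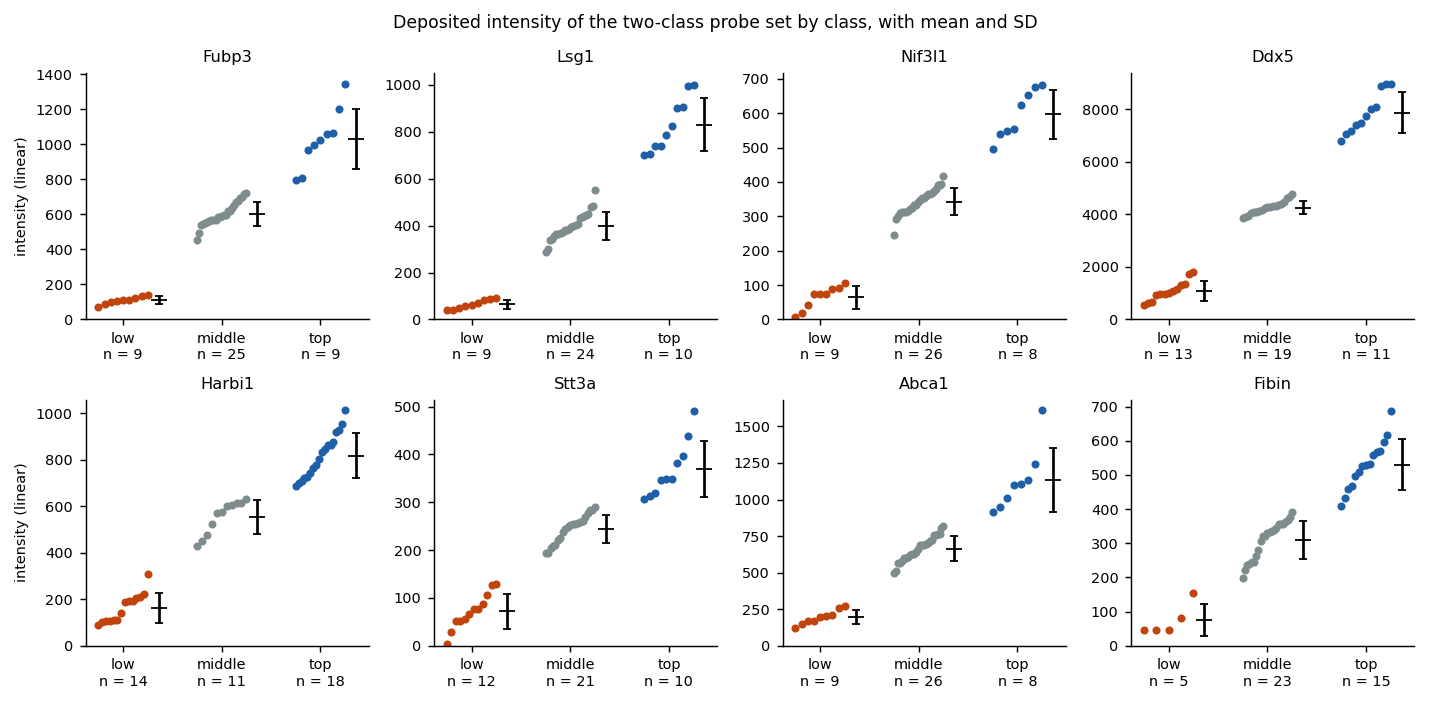
Deposited linear intensity (y axis) of the two-class probe set of each gene in animals of the low, middle and top class (x axis); each point is 1 animal, and the bar with whiskers is the class mean with its SD. The Ddx5 means are 1090, 4258 and 7868, with the middle class 46.8% of the way from low to top.

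Every gene had at least 1 other probe set, and these were not used to choose the gene. The two-class probe set of a gene was the 1 with the highest separation, so a smaller separation on the others follows from that rule. In Nif3l1 the second probe set, 1383289_at, split at the same animals. Its log2 values were 8.28 to 8.84 (median 8.66) in the 9 low animals and 9.02 to 9.83 (median 9.27) in the other 34, with no overlap. The difference of the medians was -0.61, against a difference of class means of -2.51 for the first probe set. The 8 top animals of the first probe set also lay high on the second, at 9.44 to 9.83.

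Abca1 had 3 other probe sets. On 1394490_at the low animals had 6.20 to 7.72 (median 7.30) and the others 7.07 to 9.14 (median 8.06), so the ranges overlapped, but all 9 low animals fell in the lower part of that probe set's own split. Its medians were 7.30, 7.95 and 8.80 in the low, middle and top class. On 1383355_at the low animals had a median of 7.96 and the others of 8.14. The remaining one, 1384381_at, did not pass the filter, with a median of 6.33 in both classes.

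Fubp3 went the other way. Its second probe set, 1382390_at, was at 10.21 to 10.91 (median 10.50) in the low animals and at 9.61 to 10.66 (median 10.35) in the others. By class the medians were 10.50, 10.40 and 9.69 in the low, middle and top class of the first probe set. The top class spanned 9.61 to 10.47, since animal 27 lay at 10.47, and so overlapped the middle class at 10.05 to 10.66. None of its 9 low animals fell in the lower part of the second probe set's own split.

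The second probe sets of the other 5 genes overlapped widely between the classes. Ddx5 probe set 1371837_at had a median of 13.31 in the 13 low animals and 13.15 in the others, and Harbi1 probe set 1391585_at 9.61 and 9.51, each slightly higher in the low class. Medians were slightly lower in the low class for Lsg1 (8.78 and 8.97), Stt3a (10.32 and 10.46) and Fibin (7.94 and 8.20). Within the same gene, then, a low class with 0.122 to 0.252 times the mean intensity on 1 probe set went with a median difference of 0.25 or less on the log2 scale on another in Lsg1, Ddx5, Harbi1, Stt3a and Fibin.

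To compare the probe sets without the low class, r was computed over the larger class alone (29 to 38 animals), for 10 pairs of probe sets, tested 2-sided with 100000 permutations each and adjusted over the 10 by Benjamini-Hochberg. It was 0.798 for Abca1 probe set 1394490_at and -0.743 for Fubp3 (adjusted p = 5e-05 for each, from a raw permutation p of 1e-05, the smallest that can be given). It was 0.654 for Nif3l1 (adjusted p = 0.0002), 0.564 for Abca1 probe set 1383355_at and 0.531 for Fibin (adjusted p = 0.00102 for both). Spearman's rank correlation was 0.700, -0.517, 0.373, 0.468 and 0.571 for these 5 pairs, and that of Nif3l1 did not pass (adjusted p = 0.0595). After removal of the 2 most distant animals on the x axis, r came to 0.729, -0.755, 0.570, 0.507 and 0.441, and all 5 passed. The other 5 pairs did not pass, with r from -0.26 to 0.363. These values describe a class that itself holds a middle and a top part: within the middle class alone none of the 10 pairs passed, and r was 0.447 for Abca1 probe set 1394490_at, -0.105 for Fubp3 and -0.212 for Nif3l1. Thus the relation in Fubp3 and Nif3l1 was not seen among the middle animals alone. The middle class is cut on the values of 1 of the 2 probe sets, which narrows their range, and the top class was not tested alone. What the relation rests on is therefore not settled.

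**Figure D3:**
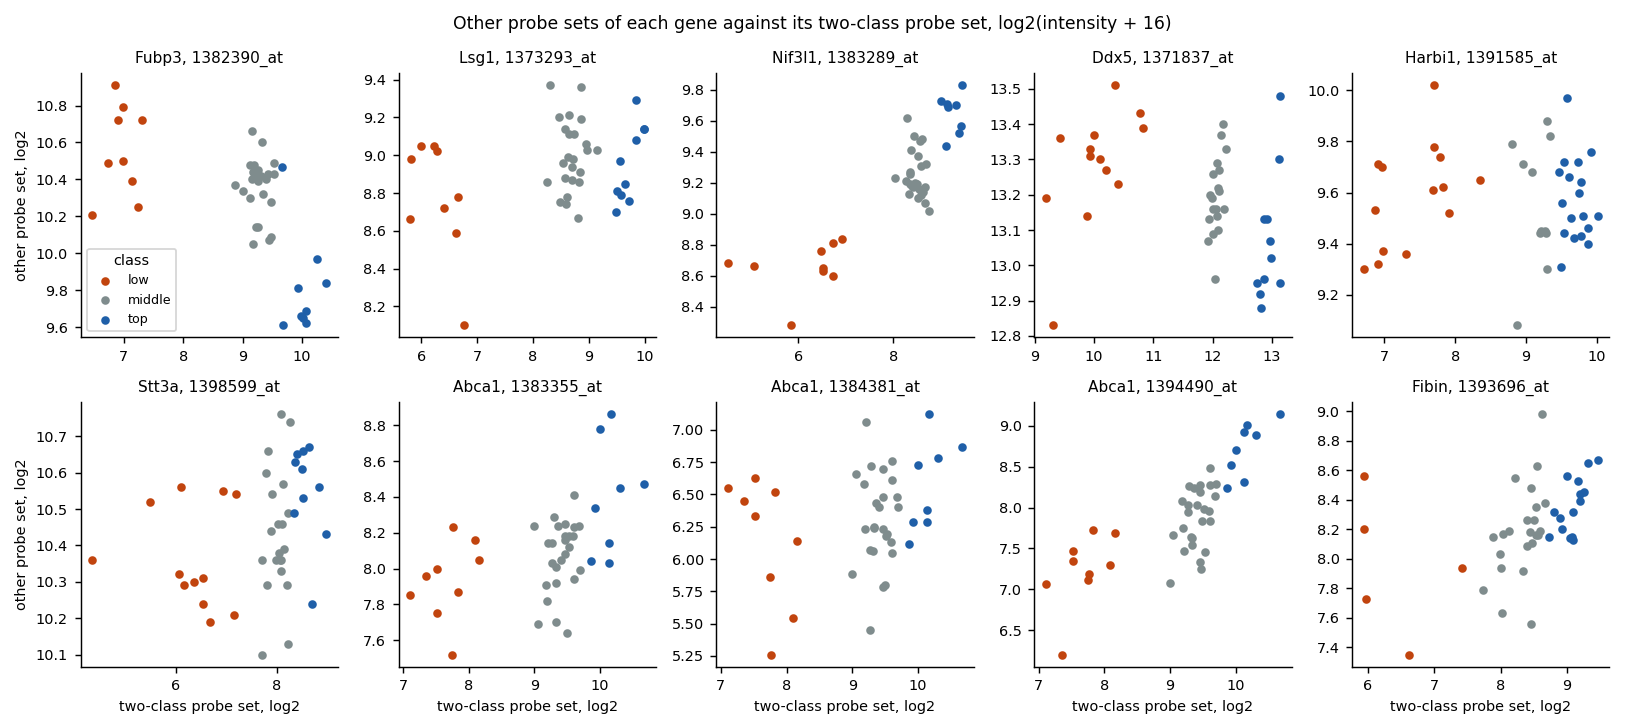
Log2(intensity + 16) of each other probe set of a gene (y axis) against that gene's two-class probe set (x axis) in 43 animals, with the low, middle and top class in red, grey and blue. Low Nif3l1 animals lie below all others on the second probe set (8.28 to 8.84 against 9.02 to 9.83), while the top Fubp3 class has the lowest median on theirs (9.69, with 1 animal at 10.47).

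No 2 of the 8 genes had the same low class. Over the 28 pairs of genes, 0 to 5 animals were low in both, and r between the two-class probe sets lay between -0.13 and 0.22. The largest overlaps were of Harbi1 with Abca1 (5 animals, 35.7% of the Harbi1 and 55.6% of the Abca1 low class) and of Ddx5 with Harbi1 (5 animals, 38.5% of the Ddx5 and 35.7% of the Harbi1 low class). Of the 3 genes of chromosome 3, Fubp3 and Harbi1 shared 4 animals (44.4% of the Fubp3 and 28.6% of the Harbi1 low class), Harbi1 and Fibin 2 (14.3% and 40.0%), and Fubp3 and Fibin 0. Over all 43 animals, 32.6% were low in Harbi1, 30.2% in Ddx5, 20.9% in Fubp3 and in Abca1, and 11.6% in Fibin. By animal, 6 of the 43 were low in no gene, 14 in 1, 10 in 2, 6 in 3 and 7 in 4 of the 8 genes. No animal was low in more than 4.

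**Figure D4:**
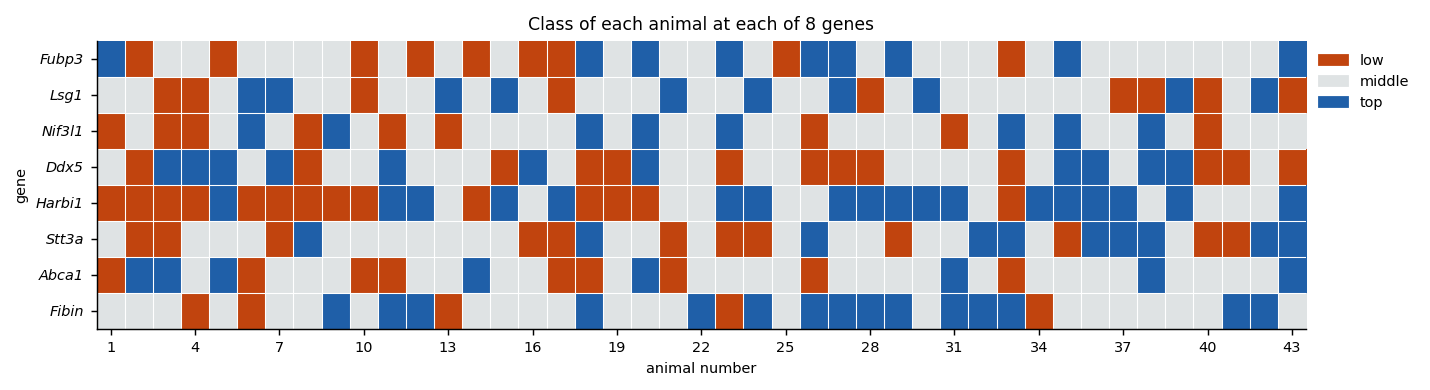
Class of each of 43 animals (x axis, animal number) at each of the 8 genes (y axis): low in red, middle in light grey, top in blue. Each pair of genes shares 0 to 5 red animals.

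The genes most like each two-class probe set were sought among 9399 other genes, each by its brightest probe set, with Pearson r over the 43 animals. These r describe values that lie in classes and share arrays, and carry no test. Ddx5 was the clearest case. Its likest gene was C10h17orf58, an uncharacterised open reading frame 3 measured genes away on chromosome 10, with r = 0.893, and 0.774 within the larger class. C10h17orf58 had log2 values of 10.33 to 11.09 (median 10.79) in the 13 animals low in Ddx5 and 11.15 to 11.93 (median 11.48) in the other 30, without overlap. Next came the splicing factor Cwc25 (0.752) and the keratin Krt10 (0.713), 112 and 88 measured genes before Ddx5 on the same chromosome. Of the 20 likest genes, 12 lay on chromosome 10, which carries 8.48% of the genes placed. The measured genes next to Ddx5 were unlike it, with r of 0.04 for Tex2, 0.03 for Polg2, -0.17 for Cep95 and -0.06 for Smurf2.

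For Fubp3 the likest gene was Sardh, the mitochondrial sarcosine dehydrogenase, 49 measured genes before it on chromosome 3, in the opposite direction (r = -0.806, and -0.823 within the larger class). Sardh was at 9.93 to 10.43 in the 9 low animals and at 8.47 to 9.96 in the others. The heme oxygenase gene Hmox1, on chromosome 19, had r = -0.609 but only -0.217 within the larger class. The torsin gene Tor1b, 7 measured genes before Fubp3, had -0.600, with -0.342 within the larger class and -0.724 without animal 43. In animals 1 to 22 and 23 to 43 taken apart, Sardh had r of -0.781 and -0.796. Hmox1 had -0.659 and -0.153, and Tor1b -0.784 and -0.375. Chromosome 3 held 9 of the 20 likest genes and 7.68% of all. The next genes Hmcn2, Ass1, Exosc2 and Abl1 had r between -0.22 and 0.232.

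Nif3l1 was most like Gtf3c3, a subunit of the RNA polymerase III factor TFIIIC, 15 measured genes before it (r = -0.651), followed by Apoe (0.649) and the glutamate transporter Slc1a3 (0.629) of other chromosomes. Within the larger class these 3 were at -0.03, 0.338 and 0.285. In animals 1 to 22 and 23 to 43 taken apart, Gtf3c3 had -0.759 and -0.461. Apoe had 0.723 and 0.345, and Slc1a3 0.709 and 0.407. Chromosome 9 held 8 of the 20 likest genes and 3.88% of all. Ppil3, the cyclophilin-like gene that shares the Nif3l1 promoter window shown above, had r = 0.529, and 0.269 within the larger class. Its log2 values were 9.37 to 10.21 (median 9.77) in the low animals and 9.85 to 11.26 (median 10.24) in the others, overlapping. Clk1, Orc2 and Hycc2, also next to Nif3l1, had r between -0.134 and 0.361. In addition, 2 probe sets without a single gene name were called two-class in nearly the same animals: 1 had exactly the 9 low animals of Nif3l1, and the other had 10 low animals that included all 9.

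Stt3a, although its own split missed the threshold, also had like genes nearby. Aplp2, an amyloid precursor-like protein 14 measured genes before it, had r = 0.705, Tmem218, 4 genes after it, 0.648, and Arhgap32, 12 before it, -0.643. Within the larger class Aplp2 was at 0.409, Tmem218 at 0.519 and Arhgap32 at -0.224. Tmem218 was at 6.95 to 8.48 in the low animals and 7.49 to 9.11 in the others. Chromosome 8 held 8 of the 20 likest genes and 5.59% of all. Of the next genes Hyls1, Chek1, Ei24 and Fez1, only Fez1 reached an r of 0.469.

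The 3 likest genes of Lsg1 lay on another chromosome, and those of Abca1, Fibin and Harbi1, given below, also lay away from their own. Baalc (r = -0.755), the mitochondrial elongation factor gene Tsfm (-0.700) and the proton pump subunit gene Atp6v1c1 (-0.598) are all on chromosome 7 of the gene table. Chromosome 7 held 5 of the 20 likest genes and 6.37% of all, and chromosome 11 held 1 and 2.63%. Atp6v1c1, Baalc and Fzd6 (0.553) are consecutive measured genes, and Nipal2 (0.509) lies 14 and Tsfm 44 measured genes before Baalc. Fzd6 and Nipal2 were named after their values were seen. Baalc was at 8.66 to 9.46 in the 9 animals low in Lsg1 and at 7.62 to 9.05 in the others. Its r was -0.762 in animals 1 to 22 and -0.770 in animals 23 to 43, and -0.732 within the larger class. Within the larger class Tsfm was at -0.672, but Atp6v1c1 at -0.164 and Fzd6 at 0.208, and Fzd6 had r of 0.818 in animals 1 to 22 and 0.309 in animals 23 to 43. The genes beside Lsg1 itself, Xxylt1, Fam43a, Hes1 and Opa1, had r between 0.04 and 0.26, and the highest absolute r among the 20 nearest was 0.384. Whether probe set 1391565_at reports Lsg1 was not tested.

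**Figure D5:**
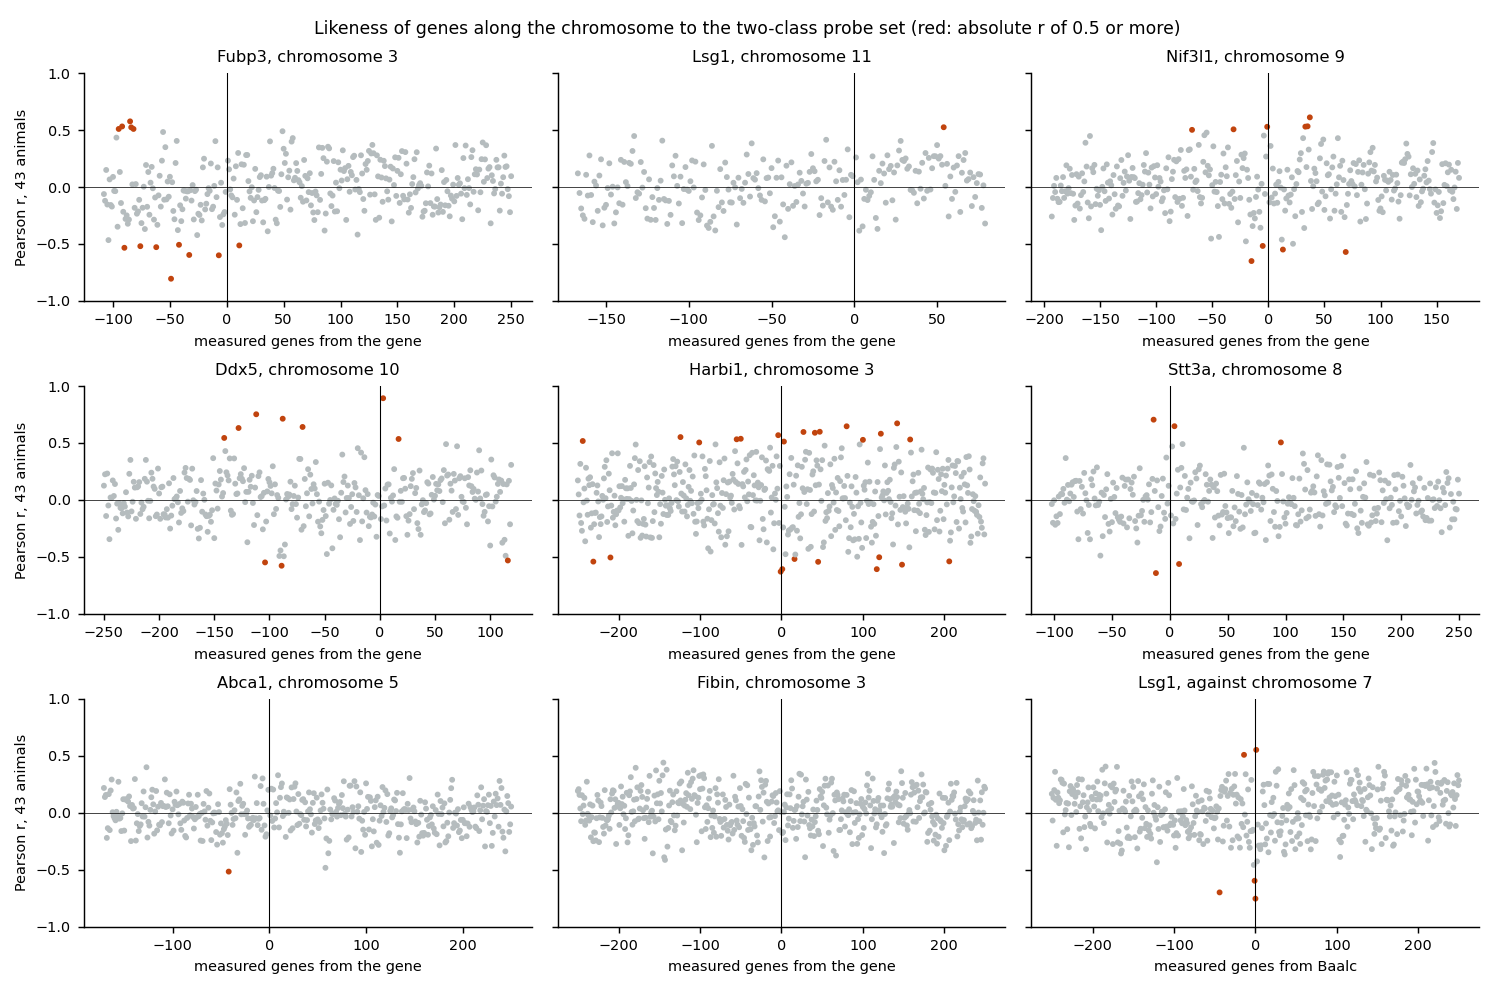
Pearson r over 43 animals (y axis) between each two-class probe set and genes of the same chromosome, by the number of measured genes from it (x axis, up to 250 on each side), with red points at an absolute r of 0.5 or more; the last panel shows Lsg1 against chromosome 7, centred on Baalc. C10h17orf58 stands at 0.893 beside Ddx5 and Baalc at -0.755, while Lsg1, Abca1 and Fibin have no such gene within 10 measured genes on their own chromosome.

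Abca1 and Fibin had no close counterpart. The likest genes of Abca1 were Tmem186 (0.567), Sprn (-0.554) and Aarsd1 (-0.530), none of them on chromosome 5, and its neighbours Smc2, Nipsnap3b, Slc44a1 and Fsd1l had r between -0.02 and 0.212. Chromosome 5 held 3 of the 20 likest genes of Abca1 and 6.55% of all, and chromosome 10 held 5 and 8.48%. The likest genes of Fibin were the BMP antagonist Nog (0.577), Gadl1 (0.564) and 6330403K07Rikl (0.558), on chromosomes 10, 8 and 10. Chromosome 3 held 1 of the 20 likest genes of Fibin and 7.68% of all, and chromosome 10 held 4 and 8.48%. For 6330403K07Rikl, r was 0.75 in animals 1 to 22 and 0.130 in animals 23 to 43. In the same order, Nog had 0.703 and 0.263, and Gadl1 0.541 and 0.545. Beside Fibin, Lin7c, Lgr4, Nop10 and Emc4 had r between -0.178 and 0.19.

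Harbi1 had many like genes. An absolute r of 0.5 or more was seen with 223 genes, against 4 to 27 for the other 7 genes, and 191 of the 223 lay on other chromosomes. Chromosome 3 held 3 of the 20 likest genes and 7.68% of all, and chromosome 14 held 5 and 3.27%. The likest were Tmem30b on chromosome 6 (0.757), the Notch target Hey2 on chromosome 1 (0.692) and the GABA receptor subunit gene Gabrg1 on chromosome 14 (0.673). Within the larger class these were 0.269, 0.131 and 0.152, and in animals 1 to 22 and 23 to 43 taken apart they were 0.609 and 0.363, 0.485 and 0.133, and 0.490 and 0.06. The Harbi1 class went with the numbering of animals, as given above, and with marker levels: the mean log2 of 3 gonadotroph markers had an r of 0.634 with Harbi1, that of 3 folliculostellate and stem cell markers 0.603, that of 2 somatotroph markers 0.543, that of 2 thyrotroph markers 0.488, that of 1 fibroblast marker 0.405 and that of 3 macrophage markers -0.507. The lactotroph, erythroid and endothelial markers had r of 0.07, 0.06 and 0.265, and no corticotroph or posterior lobe marker passed the filter. For the other 7 genes the largest absolute r with any marker list was 0.468 (Nif3l1 with the folliculostellate markers), followed by Fubp3 with the macrophage markers at -0.445. The gonadotroph mean was 7.04 to 7.98 in the 14 low animals and 7.45 to 8.86 in the others, the folliculostellate mean 7.86 to 9.20 and 8.40 to 9.46, and the macrophage mean 9.36 to 10.46 and 9.37 to 10.38. Their part in the Harbi1 values was not tested.

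Both measured genes next to Harbi1 ran opposite to it. The autophagy gene Atg13, whose promoter window overlaps that of Harbi1, was at 11.00 to 11.51 (median 11.31) in the low animals and 10.77 to 11.38 (median 11.12) in the others (r = -0.631). Ambra1, an autophagy regulator on the other side, was at 8.43 to 9.27 (median 8.80) and 7.31 to 9.09 (median 8.38), with r = -0.608. Within the larger class the 2 values were -0.107 and -0.146. The next genes out, Arhgap1 and Chrm4, had r of 0.298 and -0.242. Cstpp1, 4 measured genes before Harbi1, and Mdk, 3 after it, named after their values were seen, ran the same way as Harbi1, with r of 0.569 and 0.512. Sppl2a, an intramembrane protease gene on chromosome 3 but not among the 10 measured genes on either side of Harbi1, was named after its values were seen. It was itself called two-class, and 10 of its 11 low animals were among the 14 of Harbi1. Of those 14, 13 are numbered 1 to 22, and the part of the numbering in this overlap was not tested. Over all 43 animals, 32.6% were low in Harbi1.

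Along the chromosome, the share of genes with an absolute r of 0.5 or more was higher within 10 measured genes than on other chromosomes for Fubp3 (5.0% and 0.162%), Nif3l1 (10.0% and 0.189%), Ddx5 (5.0% and 0.07%), Harbi1 (20.0% and 2.21%) and Stt3a (10.0% and 0.0452%). The shares within 10 genes rest on 1 to 4 of 20 genes. In the same order, the shares at 11 to 50 measured genes were 5.0%, 7.5%, 1.25%, 7.5% and 2.5%. At 51 to 150 measured genes they were 5.06%, 1.0%, 4.73%, 5.0% and 0.658%. The likeness was therefore not confined to the nearest genes. For Lsg1, Abca1 and Fibin the share within 10 genes was 0. Neighbouring genes share alleles in an F2 cross, and they can also share probes or overlapping transcripts, so likeness along a chromosome does not by itself show which gene a class belongs to.

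Genes that work with the 8 members, are related to them or lie beside them were looked at in the same way. Of 54 such genes listed, 45 passed the filter with 55 probe sets, and 0 of these were called, against 0.76% over all probe sets, a share at which 0 of 55 says little. The list for Ddx5 (8 genes, among them its paralog Ddx17) had a median separation of 2.77, that for Stt3a (10 genes, subunits of the oligosaccharyltransferase) 3.08, that for Abca1 (9 measured of 12, cholesterol handling) 2.71 and that for Lsg1 (8 measured of 9, large-subunit maturation) 2.69. Ddx17 had r = -0.175 with Ddx5, and Stt3b, the other catalytic subunit, -0.318 with Stt3a. Single probe sets of the Ddx5 and Stt3a lists reached separations of 7.91 and 7.85, but with fewer than 4 animals in the smaller class.

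Among the other called probe sets, 76 had 1 gene name and 35 had none or several. Hba-a3, a hemoglobin alpha chain, had the largest separation of these named genes, 9.90, with 9 low animals and a gap of 3.52. Of these 9, 3 were low in Harbi1, beside 32.6% of all 43 animals. Pheta1 (5.97), Lama4 (5.52), Gnb3 (5.23) and Paip1 (5.07) followed, and then Mef2d, Fitm2, Tmem50a, Mvb12a and Sms, with separations of 4.76 to 4.99. Lama4, the laminin alpha 4 chain, had 11 low animals, and 5 of them were low in Ddx5, beside 30.2% of all 43 animals. In both cases the member was picked from the 8 for the largest overlap, so nothing is read from these counts. A smaller class of 4 or 5 animals, as in Fibin, was held by 44 of the 118 called probe sets. A separation of at least 5 together with at least 8 animals in the smaller class was reached by 12, and Fubp3, Lsg1, Nif3l1, Ddx5, Harbi1 and Abca1 were 6 of them.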

How the data were processed

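RNA of 43 anterior pituitary glands was hybridised to 1 single-colour array each. The authors deposited 1 linear intensity per probe set and array, scaled so that the mean without the lowest and highest 2% lay between 500.17 and 500.22. For the summarising software: not given in the sources used here. Array medians lay between 122.6 and 141.4, and the number of arrays limits precision. The permutation p-values test the association of 2 probe sets across animals of the larger class, which holds a middle and a top part. The deposited intensity was used as log2(intensity + 16), which understates differences of dim probe sets, and 57 control probe sets were left out. Probe sets were named where the platform annotation gave 1 symbol, and chromosomes and gene order came from the RefSeq table (GRCr8). Classes came from an exact 2-means split, tested on simulated data, and correlations were tested by permutation (Python 3.11.15, numpy 2.4.6, pandas 2.3.3, scipy 1.17.1, matplotlib 3.10.9). Members and lists were chosen with earlier results of these data known. Named genes were the members, the 3 genes most like each, 2 measured neighbours on each side, the 10 other two-class genes with the largest separation, and genes said to be named after their values were seen. Alternatives covered the pseudocount, scaling, filter, split rule, thresholds and animal 43. Genotypes and pituitary weights were not used here.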

Additional observations from a re-analysis of the deposited data

How the results depend on the processing

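Of 72 alternative values of the low-class sizes, 66 stayed within 1.5 times the main size. The settings behind the other 6 were chosen after the values were seen. The 2-means split on linear intensity put 33 animals in the low class of Lsg1, 32 in that of Ddx5 and 28 in that of Fibin, because it joined the low and most other animals against the top. The lowest of 3 classes by 3-means held 2 animals for Nif3l1, 7 for Harbi1 and 2 for Stt3a. All 112 alternative counts of low animals shared by a pair of genes stayed within the same limit. The number of probe sets called two-class was 118, against 4132 without the filter, 59 with the stricter filter, 3592 at a separation of at least 3, 17 at a separation of at least 5 and 274 with at least 2 animals in the smaller class. The likeness of Tor1b to Fubp3 was -0.724 without animal 43, and that of C10h17orf58 to Ddx5 was 0.856 by Spearman rank correlation. For the r between probe sets within the larger class, the middle class alone gave -0.105 for Fubp3, -0.212 for Nif3l1 (reversed), 0.569 for Ddx5 (reversed), 0.296 and 0.447 for Abca1 and 0.486 for Fibin, with no adjusted p below 0.05. The r of Nif3l1 was 0.373 by Spearman (adjusted p = 0.0595). That of Lsg1, -0.0165, turned to 0.00339 with quantile normalization, 0.0286 by Spearman and 0.0199 in the middle class, and that of Harbi1, 0.0334, to -0.077 without the 2 animals farthest from the median. Abca1 probe set 1384381_at passed without animal 43 (r = 0.385, adjusted p = 0.0446). The cause was not tested except where stated. No paired analysis was possible because all animals form 1 group. The limits of these data are their 43 selected animals and the absence of genotypes and weight classes from the labels used. Dim probe sets lie near the background, where the log2 scale compresses differences.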
